A study of Mus musculus with 2 samples.

Results

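Transcripts typical of macrophages were followed in cultures of mouse calvarial cells that had been depleted of cells carrying CD11b, the integrin alpha chain encoded by Itgam that marks most myeloid cells. The set comprised 39 genes chosen by symbol, and every probe set of the array annotated with 1 of these symbols was taken. All 39 were found, with 74 probe sets, among 18193 genes and 45101 probe sets in all. The cells came from the skull roof bones of newborn mice and were differentiated towards osteoblasts with ascorbic acid (50 µg/ml) and β-glycerophosphate (10 mM), which allow collagen deposition and mineral formation. RNA of 1 sample at day 5 and 1 at day 12 was read on an Affymetrix array each. The labels record no further treatment and give neither strain nor genotype, nor how many animals were pooled.

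Macrophages arise from the myeloid branch of blood formation under the transcription factor PU.1 (Spi1) and depend on the receptor for CSF1 (Csf1r), whose ligand osteoblasts themselves secrete. They engulf particles through scavenger and pattern receptors, kill microbes with lysozyme and an oxidase, and release the complement protein C1q. In bone they lie along osteoblast surfaces as resident macrophages and share their precursors with osteoclasts.

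With 1 array per day no replicate error or p-value can be given, and every ratio compares these 2 arrays. Signals are in the arbitrary linear units the authors deposited, scaled so that the trimmed mean was 200.0 on each array. The 60th percentile of all signals served as a floor, 46.6 for the day 5 array and 44.8 for that of day 12. Values below it were raised to it before a ratio was taken, so the ratio of a gene below the floor at day 5 is a lower bound, written as "at least". The brightest probe set stands for a gene unless others are named, and a ratio of 2-fold or more in either direction is the rule for a count. In this bulk RNA, more cells of a type and more RNA per cell cannot be told apart.

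Macrophage transcripts were already present at day 5 and were higher at day 12 as a group. At day 5, 25 of the 39 members lay above the floor, and the same 25 lay above it at day 12 together with 6 more. The remaining 8 lay below the floor on both arrays, and no member was above it at day 5 alone. Of the 25 members above the floor on both arrays, 20 (80.0%) were at least 2-fold higher at day 12, against 3.10% of the 9810 genes above the floor on both arrays and 3.24% of the 4905 dimmest of these. None of the 25 was at least 2-fold lower, where 1.52% of all such genes were. The 25 had a median log2 ratio of 1.33 (2.52-fold), while that of all genes above the floor on both arrays was -0.05. Of the 6 members that entered through day 12, which had to be higher there, Cd84 and Folr2 had bounds past 2-fold. Over all 31 measured members this gives 22 higher, none lower and 9 between, against 3.56% higher and 1.73% lower of 10479 measured genes. At 1.5-fold 26 members counted as higher (7.25% of genes), and at 3-fold 8 did (1.67%).

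The direction did not depend on the floor. As deposited, 38 of 39 members had a higher signal at day 12, the exception being the scavenger receptor gene Msr1, whereas 48.9% of all 18193 genes did. The 8 members below the floor on both arrays were each higher at day 12, as were 56.0% of the 7714 genes in that range, where single signals carry little weight. By probe set, 67 of 74 were higher at day 12, and 6 of the 7 that were lower lay below the floor on both arrays.

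**Figure D1:**
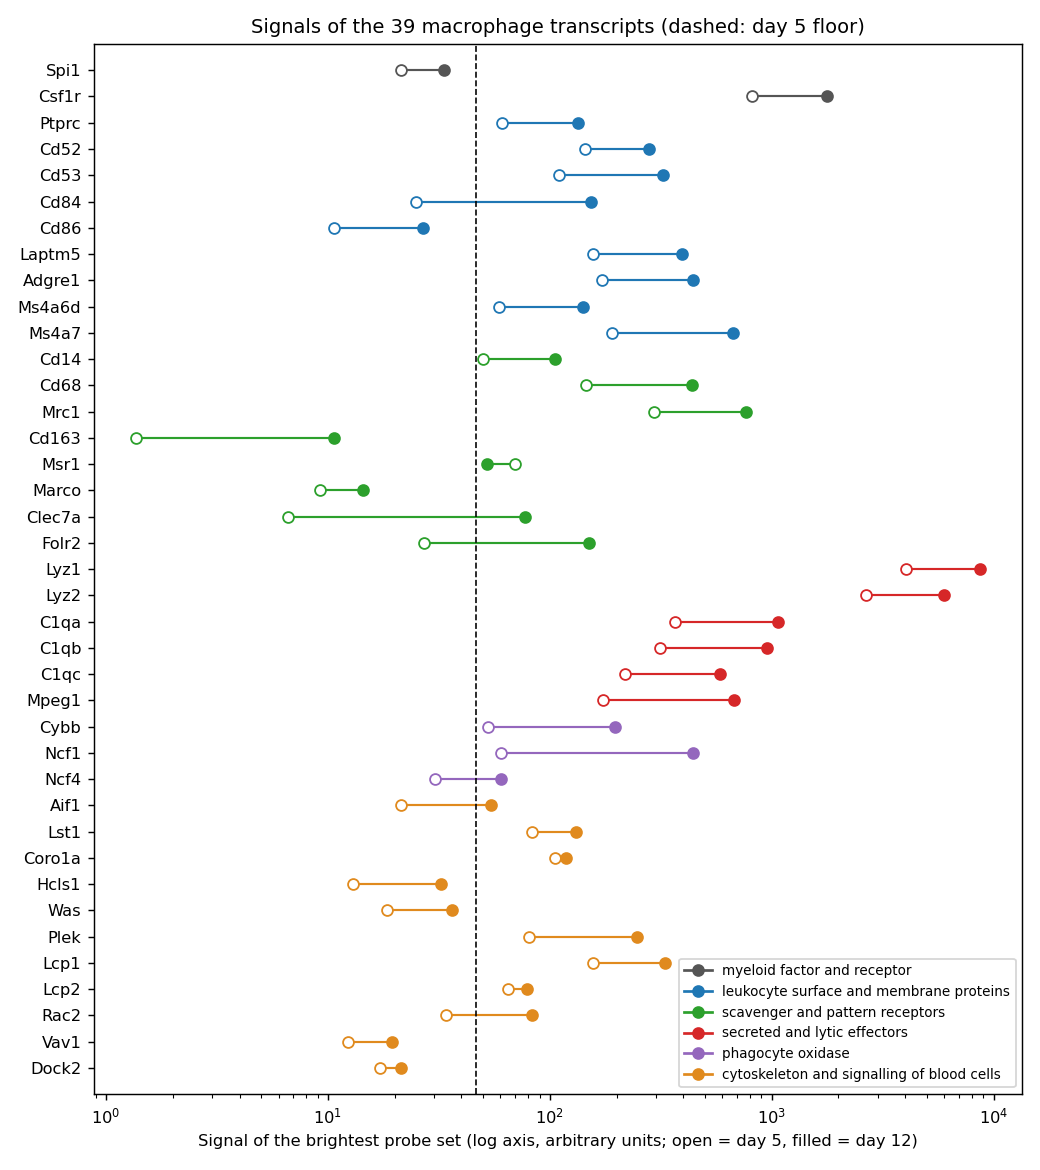
Signal of the brightest probe set of each of the 39 members on a log axis (arbitrary units), with open circles for day 5, filled circles for day 12, colours for the members' roles and a dashed line at the day 5 floor of 46.6. Filled circles lie to the right of open circles in every gene but Msr1, and 8 genes stay left of the line on both days.

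Csf1r, the gene for the lineage receptor, went from 811.6 to 1778 (2.19-fold). Its other probe sets went from 210.6 to 458.5 and from 112.8 to 181.8, so all 3 were higher at day 12, the dimmest by less than 2-fold. Spi1, the gene for PU.1, had signals of 21.3 and 33.39, below the floor on both arrays, and therefore gives no ratio.

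Promoters of members are shown because PU.1 is the factor best known to act on macrophage genes through short purine-rich sites. RefSeq promoter windows of 300 bases (250 before and 50 after a start site, build GRCm38.p6) were at hand for 27 of the 39 members, in 33 windows. The PU.1 core GAGGAA, searched on both strands, was found in 19 of the 33 windows (57.6%) and in 28.3% of all 32851 windows. The longer form GAGGAAGT, which contains the core, was found in 3 (9.09%) against 3.20%. The box TATAAA, searched on the sense strand, was found in 1 (3.03%) against 8.32%. A match is a run of letters and not a shown binding site. Below are the 250 bases before the start site of 4 measured members with a match there, 5′ to 3′ on the strand of the gene, with the match in capitals. C1qc holds the longer form in antisense, Plek the core in antisense, and C1qb and Cd68 the core in sense.
C1qc (chr4:136892915-136893164, minus strand): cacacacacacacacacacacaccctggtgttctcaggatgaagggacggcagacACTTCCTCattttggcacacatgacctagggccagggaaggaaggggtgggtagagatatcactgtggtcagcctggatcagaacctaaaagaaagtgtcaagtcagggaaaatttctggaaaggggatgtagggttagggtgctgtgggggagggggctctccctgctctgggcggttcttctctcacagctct
Plek (chr11:17008719-17008968, minus strand): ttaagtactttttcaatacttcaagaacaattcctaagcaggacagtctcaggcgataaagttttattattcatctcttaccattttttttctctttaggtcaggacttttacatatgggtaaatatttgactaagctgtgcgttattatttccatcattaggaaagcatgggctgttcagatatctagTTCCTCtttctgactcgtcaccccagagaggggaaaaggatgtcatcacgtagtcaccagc
C1qb (chr4:136886201-136886450, minus strand): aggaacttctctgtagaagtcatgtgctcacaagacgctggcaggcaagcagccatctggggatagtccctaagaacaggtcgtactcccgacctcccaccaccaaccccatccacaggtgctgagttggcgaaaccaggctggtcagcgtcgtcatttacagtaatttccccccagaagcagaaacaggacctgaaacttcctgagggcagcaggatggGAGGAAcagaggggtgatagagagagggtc
Cd68 (chr11:69666171-69666420, minus strand): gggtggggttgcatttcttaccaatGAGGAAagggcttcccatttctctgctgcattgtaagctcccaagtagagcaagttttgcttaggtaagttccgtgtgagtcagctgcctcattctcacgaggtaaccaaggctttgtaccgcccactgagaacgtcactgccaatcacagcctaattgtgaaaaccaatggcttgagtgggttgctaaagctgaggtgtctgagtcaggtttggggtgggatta
The first base of the match lay 195 bases before the start in C1qc, 61 in Plek, 30 in C1qb and 225 in Cd68. These 4 genes had log2 ratios of 1.42, 1.62, 1.61 and 1.58, and were chosen for a match and a large ratio. Among members with large ratios, windows of Ncf1 (2.87), Mpeg1 (1.95) and Folr2 (a bound of 1.68) held no GAGGAA. Those of Cybb (1.9) and Cd84 (a bound of 1.71) held it, as did 1 of 2 windows of Ms4a7 (1.81). Among members with small ratios, windows of Aif1 (a bound of 0.23) and Lcp2 (0.29) held it and those of Coro1a (0.17) did not. A link between motif and ratio was not tested.

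Surface and membrane proteins of leukocytes had log2 ratios between 0.95 and 1.81 in the 7 genes above the floor on both days. Of 9 genes, 8 were measured, 7 reached 2-fold higher and Cd52 was just short of it. Ptprc, which encodes the pan-leukocyte phosphatase CD45, went from 60.86 to 134.1 (2.20-fold). Adgre1, the gene for the mouse macrophage marker F4/80, went from 172.3 to 444.4 (2.58-fold). Both lay above the floor at day 5, before the later difference. The tetraspanin gene Cd53 went from 110.0 to 323.2 (2.94-fold), and Cd52, a small glycosylated surface peptide, from 144.6 to 279.5 (1.93-fold). Ms4a7 and Ms4a6d are of a family of 4-span membrane proteins. Ms4a7 went from 190.2 to 666.5 (3.50-fold) and Ms4a6d from 58.85 to 141.8 (2.41-fold), and in its other measured probe set from 45.89 to 145.1 (at least 3.11-fold). Laptm5, a lysosomal membrane protein of blood cells, went from 156.3 to 394.3 (2.52-fold). Its 3 measured probe sets gave log2 ratios from 0.89 to 1.58, from under to well over 2-fold. Cd84, an adhesion receptor of leukocytes, crossed the floor from 24.99 to 153.1 (at least 3.28-fold). Cd86, a costimulatory ligand of activated antigen-presenting cells, stayed below it with 10.68 and 26.91.

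Scavenger and pattern receptors split into members clearly above the floor and members at or under it. Cd68, a lysosomal glycoprotein of phagocytes, went from 146.2 to 437.7 (2.99-fold), and Mrc1, the mannose receptor, from 293.6 to 768.3 (2.62-fold). Cd14, the lipopolysaccharide coreceptor, went from 50.0, just above the floor, to 105.9 (2.12-fold). Folr2, a folate receptor of resident macrophages, went from 27.07 to 149.8 (at least 3.21-fold). Each of these 4 was therefore past 2-fold. Clec7a, the receptor for fungal beta-glucan (dectin-1), went from 6.641 to 77.48, and its bound is 1.66-fold only because the day 5 signal was far below the floor. Msr1, the class A scavenger receptor, went the other way, from 70.0 to 52.09 (a log2 ratio of -0.43). That value comes from 1 of 4 probe sets, while the other 3, with both signals under the floor, were higher at day 12, so the direction of Msr1 is not settled by these arrays. Marco and Cd163, scavenger receptors of particular macrophage subsets, were below the floor on both days, with signals of 9.227 and 14.4 for Marco and 1.368 and 10.63 for Cd163.

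Secreted and lytic effectors were all measured on both arrays, and all 6 were at least 2-fold higher. The chains of C1q, the first component of the classical complement pathway, are encoded by neighbouring genes and assemble together. C1qa went from 366.9 to 1069 (2.91-fold), C1qb from 313.1 to 957.1 (3.06-fold) and C1qc from 217.9 to 584.1 (2.68-fold). Their log2 ratios lay between 1.42 and 1.61, closer to each other than the 3 probe sets of C1qb alone, which gave 0.93, 1.52 and 1.61. Mpeg1, which encodes the pore-forming protein perforin-2 of phagocytes, went from 174.7 to 674.3 (3.86-fold). Lysozyme genes, whose products cleave bacterial walls, were higher in every measured probe set. Lyz2 went from 2649 to 5984 (2.26-fold), and Lyz1 from 4021 to 8710 (2.17-fold) and from 3278 to 7699 (2.35-fold) in its 2 measured probe sets. Both measured probe sets of Lyz1 are of a design that the array's maker marks as able to bind related transcripts. A further probe set of Lyz1 lay below the floor with 12.19 and 20.69. Signal assigned to Lyz1 cannot therefore be told apart from that of Lyz2.

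The phagocyte oxidase makes superoxide, and 2 of its subunits were past 2-fold in their brightest probe sets. Ncf1, the cytosolic organiser p47phox, went from 60.41 to 441.2 (7.30-fold), and its other probe sets from 13.01 to 180.0 (at least 3.86-fold) and from 7.685 to 65.08 (at least 1.40-fold). Cybb, the catalytic membrane subunit, went from 52.79 to 197.5 (3.74-fold). The other 2 probe sets of Cybb went from 9.494 to 45.7 and from 7.391 to 56.56, from far below the floor to close above it. All 6 probe sets of these genes were thus higher at day 12, but only 1 of each gene was above the floor at day 5, and the median over probe sets gave Cybb a log2 ratio of 0.28 and Ncf1 one of 1.95. With the 75th percentile floor Ncf1 had a bound of 1.28 and Mpeg1 one of 1.89, and 2 lower bounds cannot be ranked. Ncf4, the cytosolic subunit p40phox, went from 30.56 to 60.38 (at least 1.29-fold). Subunits that other cells also use differed less, with log2 ratios of 0.35 for Cyba, the partner of Cybb in the membrane, -0.06 for Rac1 and -0.49 for Nox4, a catalytic subunit of other tissues.

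Cytoskeletal and signalling proteins of blood cells held fewer genes past 2-fold. Of 11 genes, 7 were measured, 2 were at least 2-fold higher and 5 lay between, with a median log2 ratio of 0.65. Plek, the protein kinase C substrate pleckstrin, went from 80.84 to 248.0 (3.07-fold), and its other measured probe set from 39.85 to 133.0 (at least 2.85-fold). Lcp1, the actin-bundling L-plastin, went from 156.9 to 331.0 (2.11-fold) and in its other probe set from 63.86 to 119.8 (1.88-fold). Coro1a, a coronin of leukocyte actin, went from 106.1 to 119.0 (1.12-fold), the adaptor gene Lcp2 from 64.92 to 79.15 (1.22-fold) and Lst1 from 83.45 to 130.7 (1.57-fold). Rac2, the Rac GTPase of blood cells, went from 33.98 to 83.06 (at least 1.78-fold), and Aif1, the calcium-binding protein Iba1, from 21.47 to 54.59 (at least 1.17-fold). Floored at the 50th percentile, these bounds became log2 ratios of 1.29 and 1.35, past 2-fold. Hcls1, Was, Vav1 and Dock2, regulators of actin in blood cells, stayed below the floor, with signals from 12.32 to 18.47 at day 5 and from 19.46 to 36.17 at day 12.

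**Figure D2:**
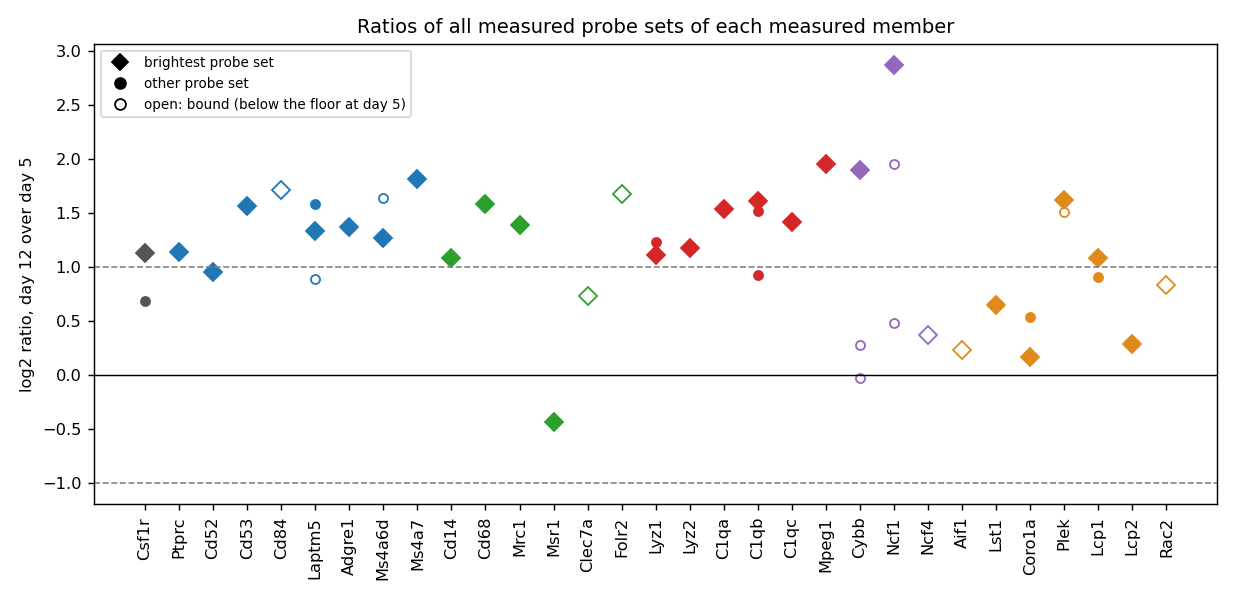
Log2 ratio of day 12 over day 5 for every measured probe set of the 31 measured members, with diamonds for the brightest probe set, circles for others, open symbols for bounds and dashed lines at 2-fold. Ncf1 stands highest at 2.87, and Msr1 alone has its brightest probe set below 0 at -0.43.

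The SD of the ratios over members was larger than that within the members whose probe sets could be compared. Over the 25 members above the floor on both arrays the quartiles were 1.08 and 1.58 (2.12-fold and 2.99-fold), the range ran from -0.43 to 2.87 and the SD over genes was 0.64. Probe sets of the same member differed with a pooled SD of 0.26, and the 2 brightest of them by a median of 0.14 in 6 members with at least 2 such probe sets. Ncf1 (2.87), Cybb (1.9) and Msr1 (-0.43) had 1 such probe set each and do not enter the 0.26. With bounds included, measured probe sets ran from 0.48 to 2.87 in Ncf1 and from -0.03 to 1.9 in Cybb. The 2 SDs thus cover different genes. Over all genes the corresponding SDs were 0.49 between genes and 0.23 within a gene. Near the 2-fold line the count depends on the handling of low signals. With a pseudocount of 32 and no floor, the log2 ratios of Ptprc, Ms4a6d, Cd14 and Lcp1 were 0.84, 0.94, 0.75 and 0.94. With a floor at the 75th percentile, those of Cd53, Plek and Cybb were bounds of 0.83, 0.45 and 0.12, and after quantile normalisation that of Lyz1 was 0.98. Ratios within a gene cover differences between probe sets only and not differences between cultures. The ratio had no close relation to brightness, with Pearson r = 0.23 and Spearman rho = 0.33 against mean log2 signal over the 25 genes, which share the same 2 arrays.

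Relatives of the members that are used outside blood cells were taken as an internal comparison. Of 15 such genes, 13 were measured, all above the floor on both arrays, with log2 ratios from -0.49 to 0.44 and a median of 0.16. None was 2-fold higher or lower, which is near the share of all genes above the floor on both arrays (3.10% higher and 1.52% lower). In the 7 pairs with both genes above the floor on both days, the member had the higher ratio in all 7, by a median of 0.90 on the log2 scale. In 2 further pairs the member, Rac2 or Aif1, entered through day 12 and had to be higher there. The difference was 1.13 for Mrc1 over Mrc2, and 1.11 and 0.90 for Laptm5 over Laptm4a and Laptm4b. For Cybb over Nox4 the difference was 2.40, but only 1.79 with the pseudocount and 0.77 with the median over probe sets. In the other pairs above the floor on both days, the difference was smaller. It was 0.89 for Lcp1 over its fellow plastin Pls3. For Rac2 over Rac1 the difference was at least 0.90. Coro1a was above its relatives by 0.16 (Coro1b) and 0.63 (Coro1c). The bound for Aif1 over Aif1l was 0.07, and it was 1.19 when the floor lay at the 50th percentile. Vav2, Dock1, Wasl and Cttn, relatives of members below the floor, had log2 ratios of 0.31, 0.34, -0.14 and -0.27. Vav3 and Plek2 lay below the floor.

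**Figure D3:**
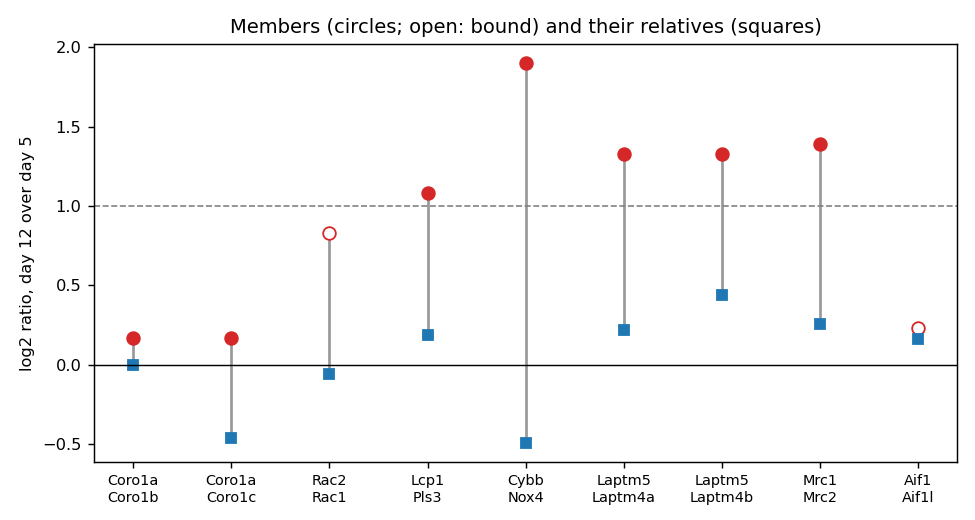
Log2 ratio of day 12 over day 5 for 9 pairs of a member (circle, open where it is a bound) and its relative used outside blood cells (square), joined by a line. Circles lie above squares in each pair, by 2.40 for Cybb and Nox4 and by 0.16 for Coro1a and Coro1b, and the open circles of Rac2 and Aif1 are lower bounds.

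Itgam, the gene of the depleted surface protein, had signals of 14.64 and 35.35 in its 1 probe set, below the floor on both arrays. Its partner Itgb2, the common beta chain of leukocyte integrins, went from 38.16 to 135.3 (at least 2.90-fold). Itgb2 was measured only through day 12 and had to be higher there. Itgal, Itgax, Itgb7 and Itga4 were below the floor on both days. Message for CD11b itself was thus not above the floor in cultures where many other macrophage transcripts were.

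Other genes of the macrophage programme moved in part with the members. Of 19 adaptors and phagocytic receptors listed, 9 were measured, 4 were at least 2-fold higher and 1 was lower, with a median log2 ratio of 0.74. Among all measured genes 3.56% were at least 2-fold higher and 1.73% lower. Tyrobp and Fcer1g, the adaptors that carry the signals of many myeloid receptors, went from 209.7 to 917.7 (4.38-fold) and from 231.9 to 764.6 (3.30-fold). Trem2, a lipid receptor that signals through Tyrobp, was at least 3.68-fold higher, and Cd36, a fatty acid and scavenger receptor, at least 2.66-fold. Both entered through day 12 and had to be higher there. Axl, a receptor for dying cells that mesenchymal cells also make, was 2.24-fold lower (784.0 to 349.8). Among 17 pattern recognition receptors, 8 were measured and 2 were higher. These were the C-type lectin genes Clec4d (57.0 to 248.8, 4.37-fold) and Clec4n (at least 3.12-fold, measured only through day 12). Neither was past 2-fold with the 75th percentile floor or without shared-sequence probe sets (0 genes each). Of 25 further signalling proteins of blood cells, 12 were measured, with a median of 0.59. Blnk, a B cell and myeloid adaptor, was at least 2.79-fold and Slc11a1, a metal transporter of phagosomes, 2.12-fold higher, and none was 2-fold lower. Blnk too was measured only through day 12. Of these signalling proteins, 0 were at least 2-fold higher with the 75th percentile floor and 1 was with the pseudocount.

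Measured growth factors and most measured transcription factors of the lineage differed from the members. Csf1, the main ligand of Csf1r, went from 2051 to 1292 (1.59-fold lower), and Il34, its other ligand, from 209.8 to 111.1 (1.89-fold lower). All 4 probe sets of Csf1 were lower at day 12, with log2 ratios from -1.43 to -0.67. Receptor and ligands therefore stood on opposite sides of 0. Csf2 and Csf3 lay below the floor. Of 7 receptors for myeloid growth factors, 2 were measured and neither reached 2-fold, with log2 ratios of -0.17 for Il3ra and at most -0.64 for Csf2ra. Csf2ra was measured only through day 5 and had to be lower at day 12, so its value is an upper bound. Of 14 myeloid transcription factors, 7 were measured, with a median of -0.12. Klf4, which is also made by many non-blood cells, was 3.98-fold higher (1063 to 4234) and was the only 1 past 2-fold. Maf, Cebpb and Runx1 had day 5 signals of 2488, 1153 and 536.7, and which cells made them was not tested. Irf8 (16.32 and 43.55) and Ikzf1 (10.95 and 19.48) were below the floor on both days like Spi1. These factors therefore give no ratio to set beside the members.

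Markers of other blood and vessel cells were mostly below the floor. None of 10 T and NK cell markers and none of 10 mast cell and basophil markers analysed lay above the floor, and their summed signals were 48.53 and 61.83, and 47.72 and 88.2, at day 5 and day 12. Of 10 neutrophil and monocyte granule markers, 9 were below the floor, S100a8 and S100a9 among them, and Plac8 was 3.07-fold lower (158.3 to 51.56). The sum of that list was 211.9 at day 5 and 117.5 at day 12. Of 7 B cell markers only Ebf1, which stromal cells also express, was measured (log2 ratio -0.85), in a sum of 522.9 and 308.8, and Cd79a, Cd79b, Ms4a1 and Pax5 were below the floor. Of 11 endothelial markers 2 were measured, Erg at -0.15 and Esam at -0.25, in a sum of 219.8 and 209.3, while Pecam1 and Cdh5 were below the floor. Of 8 dendritic cell markers 2 were measured, Fscn1 at -0.25 and Cd83 at a bound of 0.84, in a sum of 7645 and 6489. Nearly all of that sum was Fscn1 alone (7561 and 6342). Red cell and platelet markers gave 2 measured genes of 8, in a sum of 438.9 and 723.5. Pf4, a chemokine of platelets that macrophages also make, was 2.39-fold higher, and the platelet integrin gene Itga2b had a log2 ratio of -0.67. Each of these lists had at most 2 measured genes, too few for a count past 2-fold to set them apart from the macrophage members. Pf4 was the only measured gene of these lists at least 2-fold higher.

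Osteoclasts are the bone-resorbing relatives of macrophages. Of 12 of their markers, 8 were measured and none reached 2-fold with the 60th percentile floor, with a median log2 ratio of 0.20 and a range from -0.36 to 0.88. A count of none is near the share of all measured genes, 3.56% higher and 1.73% lower. Ctsk, the collagen-cleaving cathepsin K, had a log2 ratio of 0.36, the creatine kinase gene Ckb of 0.31, Mmp9 of -0.36 and Acp5, the tartrate-resistant phosphatase, of -0.24. Atp6v0d2, a proton pump subunit, went from 15.72 to 85.62 (at least 1.84-fold), and it was past 2-fold with the 50th percentile floor or the pseudocount. Calcr, Dcstamp, Ocstamp and Oscar, which mark mature or fusing osteoclasts, were below the floor on both arrays. The summed signal of the list went from 5459 to 6717, and most of it was Ctsk (3191 and 4084) and Ckb (1359 and 1682).

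Antigen presentation gave a mixed picture. Of 6 MHC class II genes analysed, 4 were below the floor, including Cd74 and the master regulator Ciita. H2-Ab1 went from 45.3, below the floor, to 241.6 (at least 5.18-fold) and so had to be higher. Its 3 measured probe sets gave log2 ratios from 0.75 to 2.37. With the 75th percentile floor it was not past 2-fold, and without shared-sequence probe sets it was not measured. H2-DMa had a log2 ratio of -0.13. The summed signal of the list went from 247.7 to 449.6.

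Osteoblast genes differed between the same arrays as well. Of 12 osteoblast markers listed, 4 were not analysed and 8 were measured. Among these 8, 6 reached 2-fold higher, which were Sp7, Alpl, Ibsp, Dmp1, Phex and Pth1r, against 3.56% of all measured genes. Phex was measured only through day 12 and had to be higher there. The 8 had a median log2 ratio of 2.18, from 0.21 for Col1a2 to 4.33 for Dmp1, and a summed signal of 22730 at day 5 and 47420 at day 12. The sum over the 39 macrophage members was 2.38-fold higher (10861 to 25823), and 2.66-fold higher without the lysozyme genes (4191 to 11129). The part of other cell types and of culture age in the members' ratios was not tested.

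**Figure D4:**
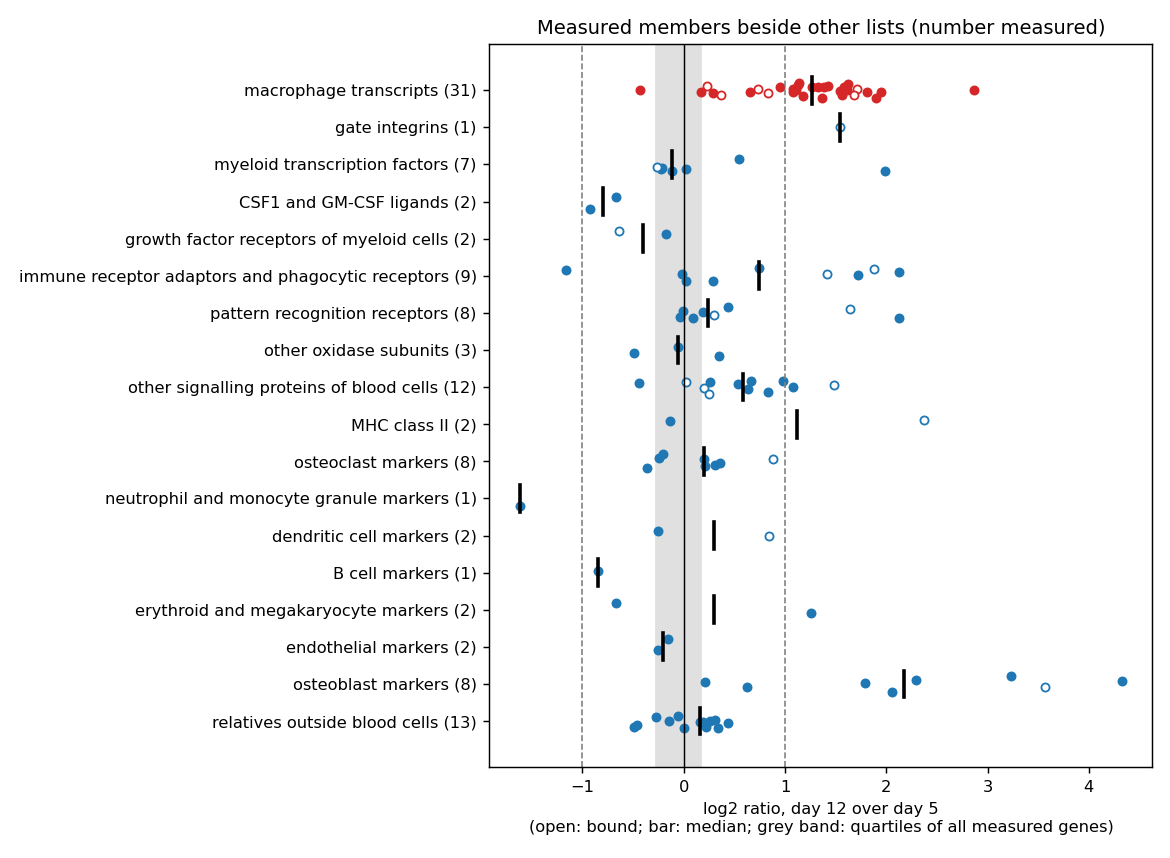
Log2 ratio of day 12 over day 5 for each measured gene of the macrophage members (red, 31 genes) and of the lists set beside them (blue, number measured in brackets), with open circles for bounds, black bars for medians, dashed lines at 2-fold and a grey band for the quartiles of all measured genes. The members' median lies at 1.27, osteoclast markers at 0.20 and relatives used outside blood cells at 0.16, and osteoblast markers at 2.18.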

How the data were processed

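Total RNA was labelled with biotin, per the labels' protocols, and each day has 1 array. The authors deposited signal intensity on a linear scale for 45101 probe sets, used here as given. GCOS 1.4 and MAS5 are named in the submitters' processing notes. Settings, detection calls and the build are not given in the sources used here. Of 45037 probe sets other than controls, 34945 carried 1 gene symbol, 932 several and 9160 none, and only the first kind was named (34741 symbols updated through Entrez numbers, GRCm38.p6). Of the genes in other lists, 27 had no such probe set and were not analysed here. Without replicates there was no test, and the number of arrays limits the precision.

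The members, lists, floor and threshold were chosen with earlier results of these data known. All members were named, and of other lists the genes past 2-fold or otherwise up to 3 with the largest ratios above the floor. Acp5, Atp6v0d2, Irf8, Col1a2, H2-DMa, Csf2ra, Cd83, Itga2b and genes below the floor were added after their values were seen. Promoters shown are those of the measured members with the largest ratios among those with a match before the start, the longer motif first and chromosome 18 left out. The 10 alternatives changed the scaling (median centring, quantile, loess), the floor (50th or 75th percentile, or a pseudocount of 32), the probe sets (median, or none of shared sequence) or the threshold (1.5-fold, 3-fold). Scripts were checked on simulated data and ran in Python 3.11.15 with pandas 2.3.3, numpy 2.4.6 and statsmodels 0.14.6.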

Additional observations from a re-analysis of the deposited data

How the results depend on the processing

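No paired analysis was possible because each day has 1 array and no test was made. The count of members at least 2-fold lower was 0 under all 10 alternatives. The count of members at least 2-fold higher, 22 as deposited, stayed between 17 and 26 except with the 75th percentile floor (13 of 18 measured) and at 3-fold (8). Of these 22, 14 stayed past 2-fold under every scaling, floor and probe choice in which they were measured, and 8 did not (Ptprc, Cd53, Ms4a6d, Cd14, Lyz1, Cybb, Plek and Lcp1). The members' median of 1.27 ranged from 1.18 to 1.42, and their SD was 0.65, or 0.46 with the 75th percentile floor. Of the 31 measured members 30 stayed above 0 throughout, the exception being Msr1. All genes at least 2-fold higher, 373 as deposited, were 223 with the 75th percentile floor, 760 at 1.5-fold and 175 at 3-fold. Those lower, 181 as deposited, were 297 and 74 with the 50th and 75th percentile floors, 807 at 1.5-fold and 36 at 3-fold. The median of MHC class II genes was 1.12, and -0.13 without probe sets of shared sequence, which drop H2-Ab1. Scaling moved the median of all genes from -0.05 to no more than 0.00. Signal over background limits the 14 of 39 members that lay below the floor at day 5.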
